A study of Homo sapiens with 36 samples.

Results

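The 9 genes described here, of 19137 gene symbols counted in each library, are MYC with its partner MAX and the antagonist MXD1, and 6 genes of nucleolar ribosome assembly, NPM1, NCL, FBL, NOP56, NOP58 and DKC1. They were taken by symbol. The 9 symbols had 20 transcript rows, and the row with the highest mean count over the 36 libraries stood for each gene. MYC is a transcription factor that binds DNA as a dimer with MAX, best at the hexamer CACGTG, and is known for raising the expression of genes for ribosome production and metabolism. MXD1 competes for MAX and represses from the same sites. In the nucleolus, RNA polymerase I transcribes the ribosomal RNA precursor, small nucleolar particles modify it, and assembly factors fold and cut it into the ribosomal subunits. Enlarged nucleoli are a known feature of transformed cells.

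The study set RNA sequencing beside ribosome profiling, the sequencing of message fragments covered by ribosomes, in a pair of human cell systems. The first, MCF10A-ER-Src, is made from breast epithelium and carries the Src kinase fused to part of the oestrogen receptor, so that tamoxifen turns the kinase on. All its libraries, controls included, come from cells with the fusion. Cells received 1 µM 4-hydroxy-tamoxifen (TAM) for 1, 4 or 24 h, or ethanol, the vehicle, for the same times, or were taken at 0 h. The 0 h and ethanol libraries are called uninduced below. The other model is the BJ skin fibroblast line in the derivatives labelled EH, EL and ELR, letters that the labels do not spell out. Telomerase, the SV40 early region and oncogenic HRAS are the steps usually added to such fibroblasts, as background. Each model is 1 cell line, and the labels name neither clones nor separate cultures, so p-values measure the spread between these libraries, which may be technical. Footprints were collected after cycloheximide (100 µg/ml for 90 s), which stops ribosomes in place, or after harringtonine (2 µg/ml for 5 min), which traps newly started ribosomes while those already elongating run off.

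The ER-Src set held 7 RNA, 10 cycloheximide and 4 harringtonine libraries, and the BJ set held 3, 6 and 6. Total counts ranged from 2071883 to 3008760 in RNA, from 1178012 to 3628073 under cycloheximide and from 129175 to 374359 under harringtonine, so harringtonine values are the least precise. Each tamoxifen time had 2 cycloheximide libraries, each uninduced condition 1, and each BJ line 2. The 0 h cycloheximide library is numbered replicate 1 and the ethanol ones replicate 2, while each tamoxifen pair holds both numbers. Replicate number and vehicle thus cannot be told apart among the uninduced footprint libraries. In the comparisons with ethanol of the same time, both numbers were set against replicate 2. Every RNA group had 1 library. Levels are in CPM, counts scaled to a common library size (edgeR, TMM scaling within each kind of library). Marker sums followed the labels, though not every marker did. The 11 epithelial markers summed to 10230 to 20370 CPM in ER-Src footprints against 813.6 to 1066 in BJ, where 3 were at 0. KRT18 made up most of the BJ sum, at 793.9 to 1046 CPM against 518.4 to 864.6 in ER-Src. The 12 fibroblast markers summed to 64.4 to 152 CPM in ER-Src footprints, with 4 at 0. Of these 12, FAP ranged from 35.5 to 123.5 CPM in ER-Src and from 0.38 to 195.2 in BJ, where the lowest LUM and DCN values were 0. Replicate footprint libraries of a BJ line differed little beyond counting error (chi-square per gene 1.09 to 1.18), while ER-Src pairs differed more (3.83 to 5.27). In such bulk samples, fewer cells of a type and less RNA per cell cannot be told apart.

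Start-site sequences are shown first because messages that open with a C followed by a run of pyrimidines (the start of a terminal oligopyrimidine tract) are known to be translated under growth control, and because CACGTG is the site of MYC and MAX. RefSeq (GRCh38.p14) start windows were found for 7 of the 9 genes, all but MYC and NOP58. Each sequence below holds 10 bases before the annotated start and 20 from it, and capitals mark the pyrimidine run that opens with C at the start. The windows, on the plus strand for NPM1, NOP56 and DKC1 and on the minus strand for FBL and NCL, are chr5:171387839-171387868, chr19:39846360-39846389, chr2:231464465-231464494, chr20:2652622-2652651 and chrX:154762854-154762883, in the order of the lines.
NPM1: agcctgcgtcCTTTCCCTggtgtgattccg
FBL: cgcctgcgctCTTTTCCacgtgcgaaagcc
NCL: ctttcgcctcagtctcgagctctcgctggc
NOP56: cgctagccgcattgcgagccgaacccggga
DKC1: gtgcgcgggtgggtgggtcctagcagcgcg
NPM1 had a run of 8 pyrimidines and FBL a run of 7, and neither NCL, NOP56 nor DKC1 opened with C. A run of at least 5 was present in 4.07% of the 35116 entries of the table. NPM1 has a second entry without a run, and of the 2 MAX entries 1 has a run of 6. The CACGTG hexamer, which reads the same on both strands, was searched in the whole window of 250 bases before and 50 after the start, which 7.26% of entries hold. Among these genes it was found only in FBL, from base 7 counted from the start, where its first letter is the last of the pyrimidine run. These matches describe the annotated sequence only.

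In the BJ lines, footprints on MYC and on most of the nucleolar genes rose from EH to EL and again from EL to ELR. MYC footprints were 63.0 and 65.0 CPM in EH, 80.4 and 79.9 in EL, and 116.5 and 111.4 in ELR. The values of the 3 lines did not overlap. EL stood 1.26-fold above EH (log2 difference 0.34, SE 0.14, edgeR quasi-likelihood test with Benjamini-Hochberg adjustment, adjusted p = 0.0398) and ELR 1.45-fold above EL (0.53, SE 0.10, edgeR adjusted p = 9.43e-06). The rise from EH to EL was not called when any 1 of those 4 libraries was left out (edgeR adjusted p from 0.0771 to 0.233). MYC RNA, with 1 library per line, was 41.3 CPM in EH, 43.4 in EL and 75.3 in ELR, so that the RNA was nearly level between EH and EL and higher in ELR.

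MAX, the partner that MYC needs to bind DNA, rose at the first step and was not called at the second, the difference between the steps not being tested. Its footprints were 21.3 and 14.4 CPM in EH, 32.3 and 31.8 in EL, and 36.3 and 33.6 in ELR. EH lay below both other lines (EL against EH log2 0.83, SE 0.24, edgeR adjusted p = 0.00312), and the call was lost without EH replicate 2 (edgeR adjusted p = 0.0837). From EL to ELR the log2 difference was 0.15 (SE 0.17, edgeR adjusted p = 0.524), with values from −0.19 to 0.49 within 2 SE. MAX RNA went 43.1, 57.4 and 44.6 CPM in EH, EL and ELR. Its 7 transcript rows share exons, so a MAX level stands for the row with the most reads. MXD1, the antagonist, was scarce in fibroblasts. It had 3 to 15 cycloheximide reads per library (2.69 to 7.99 CPM) and was below the filter for testing.

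Of the 8 genes tested, 6 rose with an adjusted p under 0.05, the threshold for a difference to be called here, from EH to EL, 6 rose from EL to ELR, and all 8 were higher in ELR than in EH. Over all genes, 41.5%, 36.1% and 53.4% were called in these 3 comparisons, in either direction, and 25.5% of genes were called higher in ELR than in EH. The higher calls alone made up 19.1% and 17.4% at the 2 steps. DESeq2 called 3, 4 and 7 of the 8 genes in the same order, without MYC, MAX and DKC1 at the first step (adjusted p 0.226, 0.0636 and 0.213), FBL and DKC1 at the second (0.225 and 0.198) and NOP56 in ELR against EH (0.0515). The biological coefficient of variation was 1.8% among BJ cycloheximide libraries and 13.9% in ER-Src. In a joint fit of both models, chosen after seeing the data, 3 of the 9 genes (MAX, NPM1 and FBL) were called from EH to EL with edgeR, and 7 in ELR against EH, all but NOP56 and MXD1. From EL to ELR that fit called 0 of the 9 (adjusted p from 0.116 for NOP58 to 0.489 for FBL among the 6 called before), 3 passed an unadjusted p under 0.05, and 702 of 10936 genes were higher and 1079 lower.

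**Figure D1:**
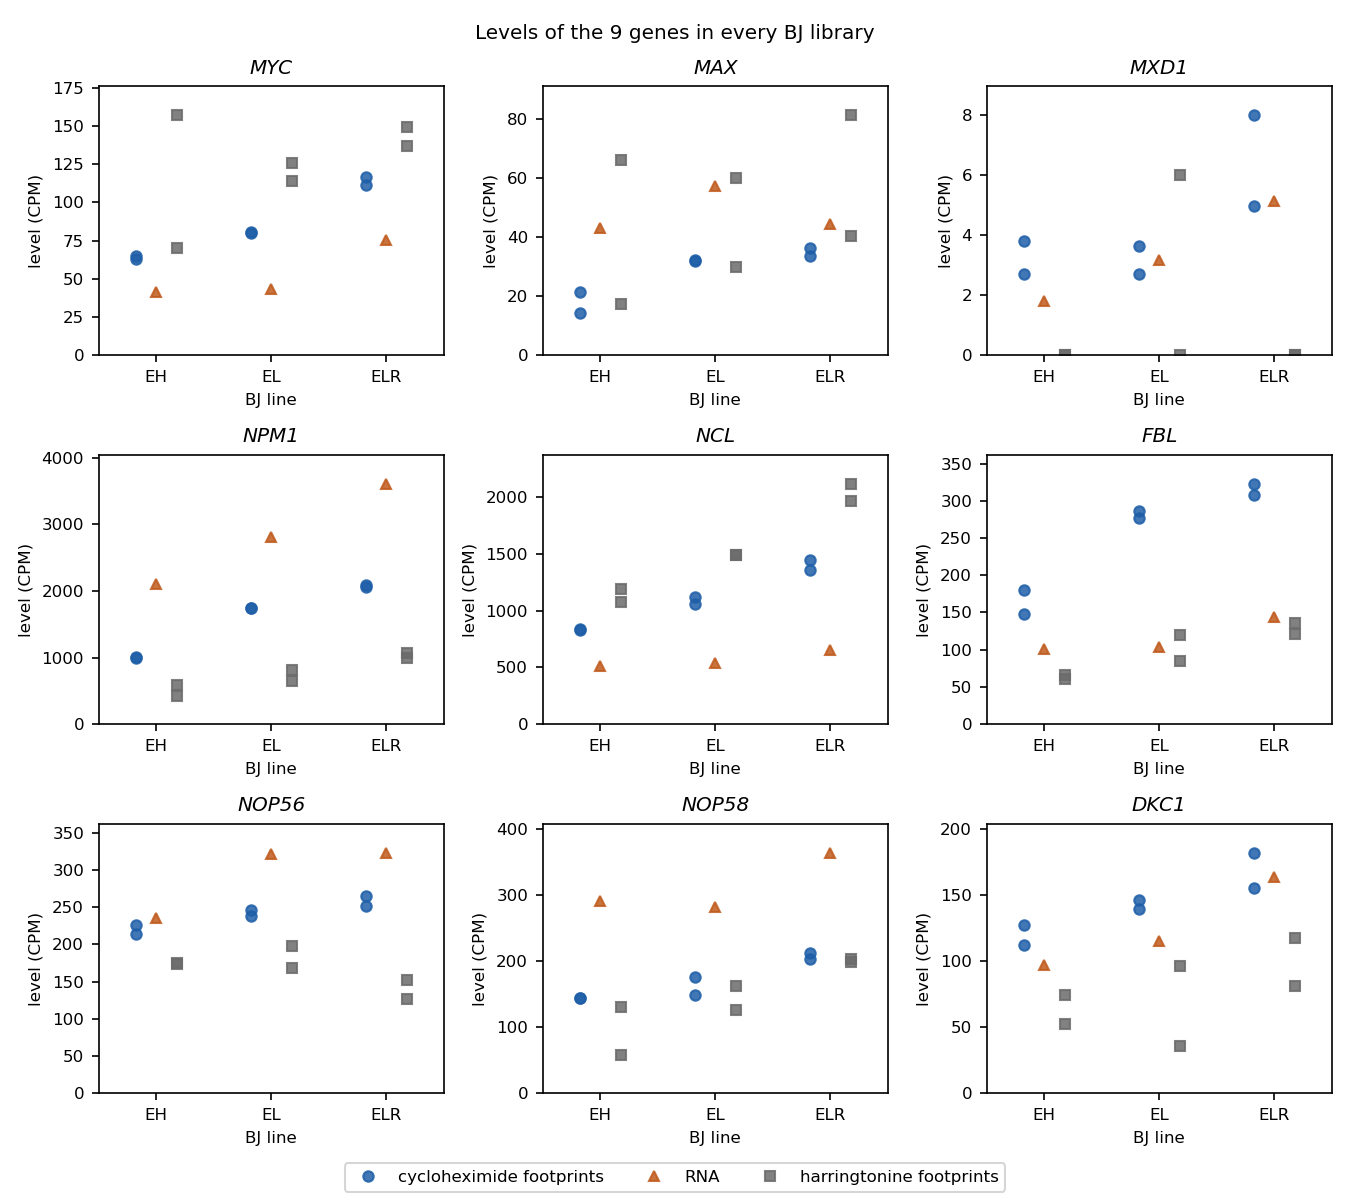
Level in CPM (vertical axes, linear from 0) of each gene in every BJ library by line (horizontal axes), with 2 points per line for each kind of footprint and 1 for RNA. NPM1 cycloheximide points climb from the EH pair at 991 and 1011 to the ELR pair at 2065 and 2094, while NOP56 points lie between 213 and 265 in all 3 lines.

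Nucleophosmin (NPM1), a chaperone of ribosomal proteins and nucleolar scaffold, had the highest level of the 9 genes under cycloheximide and in RNA. Under harringtonine NCL was higher, with means of 1134 CPM against 508 for NPM1 in EH and 2038 against 1025 in ELR. NPM1 cycloheximide footprints were 1011 and 991 CPM in EH, 1748 and 1740 in EL, and 2094 and 2065 in ELR. The lines were far apart compared with the replicates, by 1.75-fold at the first step (log2 0.81, SE 0.037, edgeR adjusted p = 1.86e-30) and 1.21-fold at the second (0.28, SE 0.03, edgeR adjusted p = 2e-12). NPM1 has processed pseudogenes of near-identical sequence, and the sources used here do not give how shared reads were counted, so its level is uncertain to that extent. Fibrillarin (FBL), the methyltransferase of box C/D particles, followed the same order. It had 180 and 148 CPM in EH, 276.7 and 285.6 in EL, and 323 and 308 in ELR. FBL rose 1.71-fold at the first step (log2 0.77, SE 0.083, edgeR adjusted p = 1.64e-12) and little at the second (0.19, SE 0.061, edgeR adjusted p = 0.00922). The second call was lost without EL replicate 1 or ELR replicate 1 (edgeR adjusted p = 0.136 and 0.141). Nucleolin (NCL), an RNA-binding protein of the nucleolus that acts from polymerase I transcription to assembly, rose at both steps. Its footprints were 833 and 828 CPM in EH, 1122 and 1058 in EL, and 1446 and 1357 in ELR. The log2 differences were 0.40 (SE 0.043, edgeR adjusted p = 8.26e-13) and 0.39 (SE 0.035, edgeR adjusted p = 1.44e-15).

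The remaining nucleolar genes had smaller footprint differences from EH to ELR. NOP56, a core scaffold of the particle, had 213 and 227 CPM in EH, 246 and 237.5 in EL, and 265 and 251.5 in ELR. Neither step was called for it (log2 0.15, SE 0.079, edgeR adjusted p = 0.117, then 0.12, SE 0.065, edgeR adjusted p = 0.154), and ELR against EH was called (0.27, SE 0.078, edgeR adjusted p = 0.00261), except without EH replicate 1 (edgeR adjusted p = 0.0999). Its paralogue in the particle, NOP58, had 144.3 and 144.4 CPM in EH, 176 and 149 in EL, and 213 and 203 in ELR. NOP58 was called at the second step (0.37, SE 0.076, edgeR adjusted p = 4.71e-05), while the first was 0.19 (SE 0.097, edgeR adjusted p = 0.108). Dyskerin (DKC1) is the pseudouridine synthase of H/ACA particles and also belongs to the telomerase complex. It had 112 and 127 CPM in EH, 147 and 139 in EL, and 182 and 156 in ELR. Both of its steps had a log2 difference of 0.27 (edgeR adjusted p = 0.0303 and 0.00566). The first call was lost without EH replicate 1 or EL replicate 1 (edgeR adjusted p = 0.414 and 0.103), and the second without ELR replicate 1 (edgeR adjusted p = 0.326).

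RNA in the BJ lines, with 1 library each and hence no test, ordered the lines differently from footprints for some genes. NPM1 RNA was 2110, 2812 and 3609 CPM in EH, EL and ELR. NCL RNA was 509.9, 542 and 654 CPM, and FBL RNA was 100.5, 103.4 and 143.7. NPM1 climbed at both steps, whereas NCL and FBL RNA stayed nearly level from EH to EL and were higher in ELR. NOP56 RNA was 236 CPM in EH and 322 and 323 in EL and ELR. NOP58 RNA was 291, 281 and 364 CPM, and DKC1 RNA was 97.3, 115.6 and 163.8. In ELR against EH, the log2 RNA ratio ran from 0.05 for MAX and 0.32 for NOP58 to 0.87 for MYC and 1.51 for MXD1, the last on 4 and 14 reads.

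Ribosome loading is the level of footprints relative to RNA, here the log2 ratio of cycloheximide CPM to RNA CPM, and a change in it was tested as the change in footprints beyond the change in RNA. From EH to EL, loading rose on 3 of the 9 genes, NPM1, NCL and FBL, where 6.71% of all genes were called in either direction and 3.78% were higher. FBL loading was 0.84 and 0.56 in EH, 1.42 and 1.47 in EL, and 1.17 and 1.10 in ELR. EH was lowest, and EL rose above it by 0.74 (log2, SE 0.17, edgeR adjusted p = 0.00124). NPM1 loading was −1.06 and −1.09 in EH, −0.69 in both EL libraries, and −0.79 and −0.81 in ELR. The rise from EH to EL was 0.40 (SE 0.054, edgeR adjusted p = 1.73e-08). NCL loading was 0.71 and 0.70 in EH, 1.05 and 0.96 in EL, and 1.14 and 1.05 in ELR, with a rise of 0.32 from EH to EL (SE 0.079, edgeR adjusted p = 0.00363). With DESeq2 only NPM1 was called (adjusted p 0.130 for NCL and 0.0574 for FBL).

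The second step brought no called change in loading for any of the 9 genes with edgeR. With the replicate number as a block NPM1 was called (−0.15, edgeR adjusted p = 0.0224), though the numbers were not shown to pair the libraries. DESeq2 gave an adjusted p for NPM1 and NCL alone (0.69 and 0.491). At an unadjusted p under 0.05 in edgeR, 2 of them passed, NPM1 (−0.15, SE 0.047, edgeR adjusted p = 0.0757) and FBL (−0.34, SE 0.14, edgeR adjusted p = 0.22), and 2.97% of all genes were called. The direction of these calls moved with the scaling, from 114 higher and 215 lower to 177 higher and 115 lower with RLE size factors, with which NPM1 was −0.06 (edgeR adjusted p = 0.627). In ELR against EH, NPM1 (0.26, SE 0.053, edgeR adjusted p = 0.000288) and NCL (0.38, SE 0.076, edgeR adjusted p = 0.000172) were higher, where 7.48% of genes were called and 3.22% were higher. MYC loading was 0.61 and 0.66 in EH, 0.89 and 0.88 in EL, and 0.63 and 0.56 in ELR, and the difference of 0.27 at the first step was not called (SE 0.25, edgeR adjusted p = 0.631). NOP56 was the one nucleolar gene whose loading was lower in EL than in EH (−0.29, SE 0.12, edgeR adjusted p = 0.148), again not called. NPM1 and FBL had the largest first-step footprint and loading differences of the 6 nucleolar genes. They are also those with an annotated pyrimidine run among the 5 whose windows are shown above, NOP58 having no entry, a pairing that was noticed after the values were seen and was not tested. In ELR against EH it did not hold for NPM1, whose loading difference (0.26) was below that of NCL (0.38), which has no run. For FBL, the other gene with a run, loading was 0.84 and 0.56 in EH and 1.17 and 1.10 in ELR. Each line's RNA side rests on 1 library, which these tests assume to vary like the footprint libraries.

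Under harringtonine the depth allowed fewer calls, though 8 of the 9 genes could be tested. From EH to EL, NCL was called (0.31, SE 0.12, edgeR adjusted p = 0.0409), where 18.5% of genes were called in either direction, and NPM1 lay at the threshold (0.44, edgeR adjusted p = 0.0508). NPM1 was called as well with the replicate number as a block (edgeR adjusted p = 0.0491) or without the filter (0.0392), and NCL was not called with RLE size factors (0.0663). From EL to ELR, NPM1 and NCL were called (0.49, SE 0.13, edgeR adjusted p = 0.00148, and 0.46, SE 0.091, edgeR adjusted p = 1.08e-05), where 16.3% were. In ELR against EH, NPM1 (0.93), NCL (0.77) and NOP58 (1.02) were higher, where 30.7% were called. NCL levels were 1193 and 1075 CPM in EH, 1485 and 1486 in EL, and 2116 and 1961 in ELR, in the same order as under cycloheximide. NOP56 was not in that order, with means of 174.4, 183 and 139.4 CPM in EH, EL and ELR. Its ELR against EH difference was −0.40 and not called (SE 0.31, edgeR adjusted p = 0.351), whereas under cycloheximide it was called higher. MYC gave 157.4 and 69.9 CPM in EH on 19 and 8 reads, so that its 2 EH libraries lay on both sides of the EL pair, at 125.7 and 114.3. NOP58 rested on 7 and 15 reads in EH, and its call was lost without EH replicate 1 (edgeR adjusted p = 0.455) or ELR replicate 2 (0.0503). The NCL call from EH to EL was lost without any 1 of the 4 libraries (edgeR adjusted p from 0.153 to 0.268), and the NPM1 call from EL to ELR without EL replicate 2 (0.177). With DESeq2, adjusted p was 0.407 for NCL from EH to EL, 0.225 for NPM1 from EL to ELR and 0.242 for NOP58.

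Cell-type markers changed strongly along the same lines. The 12 fibroblast markers summed to 31010 and 31070 CPM of cycloheximide footprints in EH, 4941 and 5098 in EL, and 1298 and 1308 in ELR, and 11 of 12 were lower in EL than in EH and 12 of 12 lower in ELR than in EL. The 11 epithelial markers summed to 1055 to 1066, 814 to 834 and 1007 to 1028 CPM, with 3 at 0 in every BJ footprint library, and the 4 that could be tested were all higher in ELR than in EL. The 8 endothelial markers summed to at most 9.93 CPM in EH and EL and to 34.8 and 36.2 in ELR. The part of these shifts in the levels of the 9 genes was not tested.

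In ER-Src cells, MYC footprints were higher at 24 h than at 1 h under either treatment. Its footprints were 203.6 CPM at 0 h, and 199.3, 313.1 and 408.3 after ethanol for 1, 4 and 24 h. After tamoxifen they were 157.6 and 156.1 CPM at 1 h, 306.5 and 291.2 at 4 h, and 358.2 and 349.2 at 24 h. At each time the tamoxifen pair lay below the ethanol library. MYC RNA was 392.5 CPM at 0 h, 267.7, 428.6 and 454.8 after ethanol, and 178.4, 403.5 and 392.8 after tamoxifen. RNA was thus lower at 1 h than at 0 h, higher at 4 h than at 1 h under both treatments, and under tamoxifen no higher at 24 h than at 4 h. The lowest MYC library of either kind was tamoxifen at 1 h. At 1 h, MYC RNA was 0.462 times the uninduced level (log2 −1.11, SE 0.25, unadjusted p = 0.000546, edgeR adjusted p = 0.724) and footprints 0.557 times (−0.84, SE 0.24, unadjusted p = 0.00283, edgeR adjusted p = 0.535). Neither passed the adjusted test with edgeR, but the RNA did with DESeq2 (adjusted p = 0.0424) and with edgeR without the 24 h ethanol RNA library (edgeR adjusted p = 0.00679), and the footprints did when genes with low counts were kept (edgeR adjusted p = 0.0168). Against ethanol of the same time alone, chosen after seeing the data, the 1 h footprint difference was −0.33 (SE 0.18, edgeR adjusted p = 0.797), where 0.00955% of genes were called.

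From 1 h to 24 h, MYC footprints rose 2.25-fold under tamoxifen (log2 1.17, SE 0.27, edgeR adjusted p = 0.00869), where 13.6% of genes were called and 7.77% were higher, and MXD1 was the other of the 9 genes called (1.18, SE 0.23, edgeR adjusted p = 0.00341). The MYC rise was 2.07-fold between the 2 single ethanol libraries (log2 1.05, SE 0.20, edgeR adjusted p = 0.0376), in a fit added after seeing the data, where 0.373% of genes were called. That fit has 1 library per ethanol time, takes its spread from the tamoxifen pairs and assumes that single libraries vary like them, so the ethanol rise has no replicate of its own. The difference between both rises was 0.13 (SE 0.25, edgeR adjusted p = 0.861), with values from −0.37 to 0.62 within 2 SE, where 1.53% of genes were called. The tamoxifen call for MYC was lost without either 1 h library or without TAM 24 h replicate 2 (edgeR adjusted p from 0.0508 to 0.0812), and that for MXD1 without TAM 1 h replicate 2 (0.0675). The number of called genes fell from 1391 to between 488 and 948 when 1 of the 4 libraries was left out, the fewest without TAM 1 h replicate 2.

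Of MYC, MAX and MXD1, MXD1 was called between tamoxifen and the single ethanol library at 24 h and the other two were not, the difference between the 3 genes not being tested. Its footprints were 18.6 CPM at 0 h and 25.7, 24.1 and 23.0 in ethanol, 22.4 and 17.5 in tamoxifen at 1 h, 28.0 and 21.7 at 4 h, and 46.8 and 43.4 at 24 h. Both 24 h tamoxifen libraries lay above all 8 others. The level was 1.93 times the uninduced one (log2 0.95, SE 0.18, edgeR adjusted p = 0.00171) and 1.96 times the single 24 h ethanol library (0.97, SE 0.25, edgeR adjusted p = 0.0271, the spread again from the tamoxifen pairs). The difference between the time courses of tamoxifen and ethanol was 1.33 (SE 0.38, unadjusted p = 0.00307, edgeR adjusted p = 0.105). MXD1 RNA was 27.7 CPM in tamoxifen at 24 h, near the 25.2 CPM at 0 h, and 6.83 CPM, on 17 reads, in ethanol at 24 h. The RNA difference from uninduced cells, 0.68 (SE 0.45, edgeR adjusted p = 0.449), was not called.

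MAX footprints were 31.2 to 44.2 CPM in the 4 uninduced libraries, the 24 h ethanol library being the highest, and 60.8 and 47.6 in tamoxifen at 24 h. The groups did not overlap, and the difference was called (log2 0.60, SE 0.18, edgeR adjusted p = 0.0341). The call was lost against ethanol at 24 h alone (0.28, SE 0.22, edgeR adjusted p = 0.573), with DESeq2 (adjusted p = 0.0669), and without 5 of the 6 libraries in turn (edgeR adjusted p from 0.0535 to 0.291), all but the 24 h ethanol library. MAX RNA was 52.5 CPM at 24 h, inside the uninduced range of 41.3 to 63.95.

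**Figure D2:**
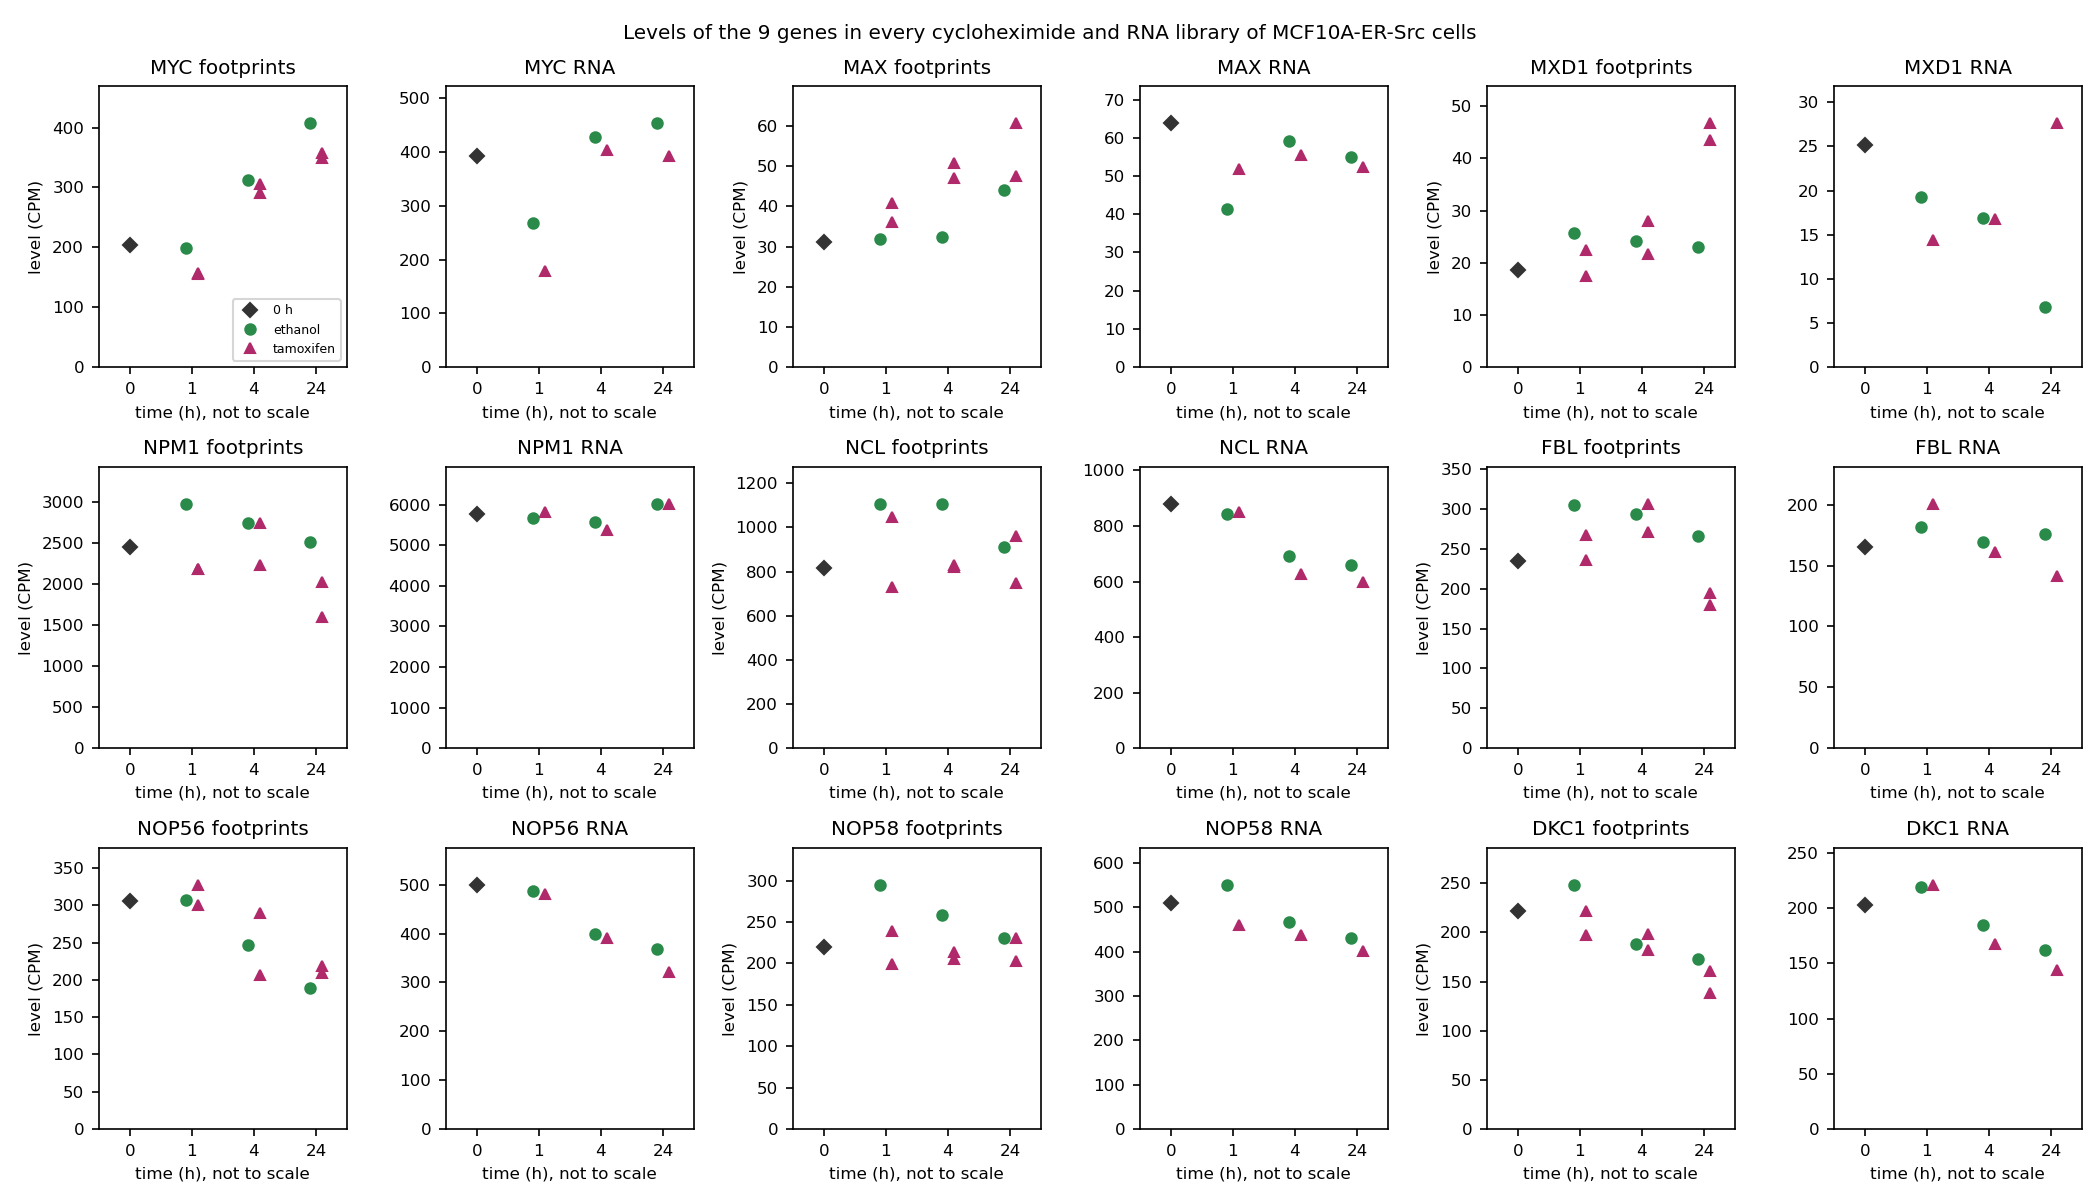
Level in CPM (vertical axes, linear from 0) of each gene in every cycloheximide and RNA library of MCF10A-ER-Src cells against time in hours (horizontal axes, evenly spaced and not to scale), by treatment. MYC footprint points climb from 1 h to 24 h in ethanol and in tamoxifen, NOP56 and DKC1 points are lower at 24 h than at 1 h in both, and MXD1 footprints at 24 h lie at 43.4 and 46.8 CPM in tamoxifen against 23.0 in ethanol.

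Of the nucleolar genes, NPM1 and FBL fell on ribosomes after 24 h of tamoxifen. NPM1 footprints were 2450 CPM at 0 h and 2975, 2742 and 2512 in ethanol, 2185 in both tamoxifen libraries at 1 h, 2230 and 2742 at 4 h, and 1592 and 2022 at 24 h. Both 24 h values were the lowest of the 10. The level was 0.677 times the uninduced one (log2 −0.56, SE 0.14, edgeR adjusted p = 0.0141). NPM1 RNA did not fall with it, at 6009 CPM in tamoxifen at 24 h against 5580 to 6024 in uninduced cells. FBL footprints were 235 CPM at 0 h and 305, 294 and 266 in ethanol, 236.5 and 267 in tamoxifen at 1 h, 272 and 307 at 4 h, and 180 and 195 at 24 h. Again the 24 h tamoxifen pair was the lowest, at 0.682 times the uninduced level (log2 −0.55, SE 0.14, edgeR adjusted p = 0.0114). FBL RNA was lowest there too, at 141.4 CPM against 165.1 to 181.6 in uninduced cells. In all, 4 of the 9 genes were called at 24 h, 2 in each direction, where 14.6% of genes were called, 8.8% higher and 5.84% lower.

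That count depended on the libraries. It ranged from 1 to 6 when 1 library was left out, with MXD1 alone left without TAM 24 h replicate 1, and with MYC (0.57, edgeR adjusted p = 0.0227) and DKC1 (−0.53, edgeR adjusted p = 0.0143) added without the 24 h ethanol library. Over all genes the count of 1492 became 766 without TAM 24 h replicate 1, 703 without TAM 24 h replicate 2 and 1960 without the 24 h ethanol library. Without TAM 24 h replicate 1, edgeR adjusted p was 0.224 for NPM1 and 0.134 for FBL, and FBL was also lost without TAM 24 h replicate 2 (0.0762). Against ethanol of the same time alone, NPM1 was −0.47 (SE 0.19, edgeR adjusted p = 0.194) and FBL −0.49 (SE 0.18, edgeR adjusted p = 0.126), and MXD1 was the only one of the 9 genes called, where 7.62% of genes were, against 0.191% at 4 h. With the tamoxifen and ethanol libraries of replicate 2 alone, edgeR called none of the 9 (adjusted p 0.0765 for MXD1), 3 passed an unadjusted p under 0.05, and 510 genes were called. At 1 h and 4 h none of the 9 genes was called by edgeR or DESeq2 (which gave MAX and MXD1 no adjusted p at 1 h), where 0.0196% and 0.854% of genes were called, and 1 of them passed an unadjusted p under 0.05 at each time, MYC at 1 h and MAX at 4 h.

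NOP56 and DKC1 had lower values at 24 h than at 1 h in ethanol and in tamoxifen, without passing the test. NOP56 footprints were 306.2 CPM at 0 h, 306.8, 246.9 and 189.7 in ethanol, 327.5 and 300.1 in tamoxifen at 1 h, 288.9 and 205.9 at 4 h, and 209.8 and 218.6 at 24 h. Its RNA followed, at 500.0 CPM at 0 h, 486.1, 399.2 and 367.7 in ethanol, and 481.6, 390.7 and 321.8 in tamoxifen. The log2 difference between 24 h and 1 h was not called in either treatment (tamoxifen −0.55, SE 0.22, edgeR adjusted p = 0.1, and ethanol −0.68, SE 0.24, edgeR adjusted p = 0.244). DKC1 footprints were 221.5 CPM at 0 h, 248.6, 188.2 and 172.7 in ethanol, 221.5 and 197.5 in tamoxifen at 1 h, 198.3 and 181.9 at 4 h, and 138.7 and 160.8 at 24 h. The 24 h tamoxifen pair was the lowest of the 10, without passing the test against uninduced cells (−0.46, SE 0.15, edgeR adjusted p = 0.0568). NCL footprints, 815 to 1108 CPM uninduced and 746 and 959 in tamoxifen at 24 h, overlapped between the groups. NOP58 did as well, with 219 to 295 and 203 and 231 CPM.

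ER-Src RNA gave no call for any of the 9 genes at 1, 4 or 24 h with edgeR, where 0.00942%, 0.16% and 6.47% of all genes were called. At an unadjusted p under 0.05, MYC passed at 1 h, none at 4 h, and NOP56 (−0.46, edgeR adjusted p = 0.193) and DKC1 (−0.43, edgeR adjusted p = 0.241) at 24 h. DESeq2 called MYC at 1 h and none at the later times. Without the 24 h ethanol RNA library, NCL, NOP56 and DKC1 were called at 24 h (edgeR adjusted p = 0.0148, 0.00647 and 0.023), and the count over all genes rose from 687 to 1595. Loading likewise gave no call for the 9 genes at any time with edgeR, where 0, 0 and 0.44% of genes were called. At an unadjusted p under 0.05, none passed at 1 h or 4 h and NPM1 passed at 24 h. NPM1 loading was −0.93 to −1.26 in the 4 uninduced libraries, −1.41 in both tamoxifen libraries at 1 h, −1.27 and −0.97 at 4 h, and −1.92 and −1.57 at 24 h. The 24 h values were the lowest, with a difference of −0.64 (SE 0.21, unadjusted p = 0.00537, edgeR adjusted p = 0.486, DESeq2 adjusted p = 0.0261).

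**Figure D3:**
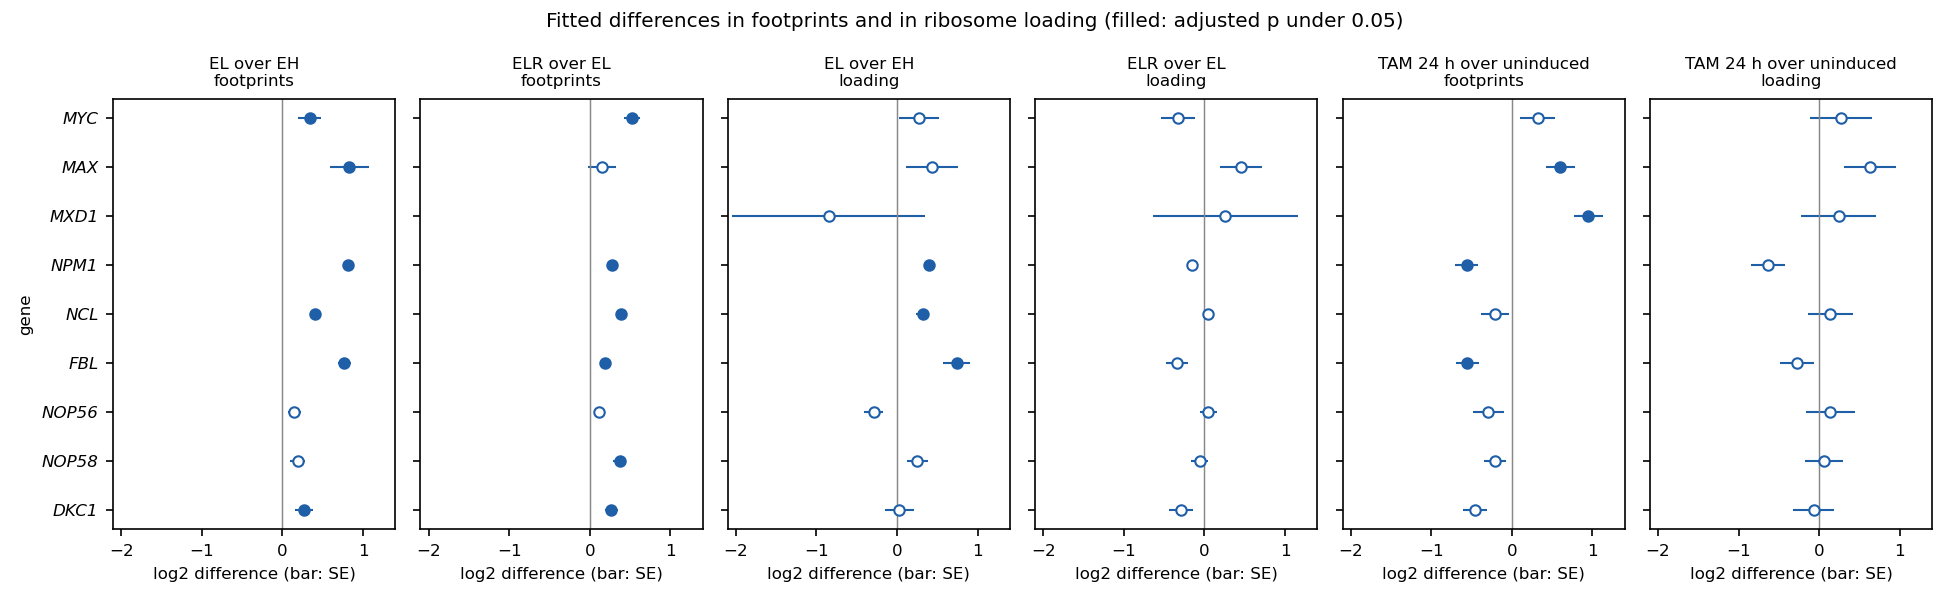
Fitted log2 difference (horizontal axes) with its SE (bars) for each gene in 6 comparisons of footprints or loading, filled where the edgeR adjusted p is under 0.05. Among the nucleolar genes NPM1 and FBL have the largest loading differences in EL over EH, at 0.40 and 0.74, and negative ones in tamoxifen at 24 h, at −0.64 and −0.28, which are not called.

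Harringtonine libraries of ER-Src cells, 1 per time, allowed no test. MYC was at 645.8 CPM at 0 h (95% Poisson interval 540 to 766, counting error only), 484 at 1 h of tamoxifen (387 to 598), 893 at 4 h (760 to 1043) and 730.6 at 24 h (650 to 819). The 1 h library was again the lowest. NCL, at 2504, 2347 and 2545 CPM from 0 to 4 h and 1394 at 24 h (1282 to 1514), was lower in the last library than in the others beyond counting error. NPM1 was at 1040, 957, 1189 and 844.5 CPM. MXD1 had 7, 2, 1 and 24 reads (34.5, 11.3, 5.58 and 59.4 CPM), the 24 h library being the deepest. MAX had 6, 0, 6 and 15 reads (29.6, 0, 33.5 and 37.15 CPM), where the upper 95% Poisson limit of the 0 was 20.8 CPM.

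Set beside the EH fibroblast line, uninduced ER-Src cells had more footprints on 7 of the 9 genes, where 56.8% of genes were called in either direction and 28.7% were higher. MYC was at a mean of 281 ± 99.8 CPM (SD, n = 4) against 64.0 ± 1.38 (SD, n = 2) in EH, a 4.40-fold difference (log2 2.14, SE 0.31, edgeR adjusted p = 8.57e-05). MXD1 differed by 2.78 (SE 0.36, edgeR adjusted p = 3.81e-05) and NPM1 was 2.65-fold higher (SE 0.12 on the log2 scale, edgeR adjusted p = 1.51e-06). MAX, FBL, NOP58 and DKC1 differed by 0.74 to 0.96, MAX not without EH replicate 2 (edgeR adjusted p = 0.0938). NCL and NOP56 had differences of 0.24 each and were not called (edgeR adjusted p = 0.164 and 0.291), but NCL was without the 0 h library (0.043) and NOP56 without the 24 h ethanol library (0.0198). Loading was called for none of the 9 genes with edgeR or DESeq2 (which gave MAX and MXD1 no adjusted p), where 0.351% of genes were called. MYC (−1.08, SE 0.48, edgeR adjusted p = 0.395) and NOP56 (−0.65, SE 0.30, edgeR adjusted p = 0.413) passed an unadjusted p under 0.05. Cell model, culture and library preparation cannot be told apart here.

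Levels of different genes are set side by side here per kilobase of coding sequence. The sources used here do not say whether reads were counted over whole transcripts or coding sequences, so the order, that of RNA above all, is uncertain to that extent. On this scale, by the median over the libraries of a model, NPM1 ranked first in both models, with 2653 CPM per kb of footprints in ER-Src and 1977 in BJ. NCL came next at 408 and 512, then FBL at 277 and 292. MYC followed in ER-Src at 219 and was, at 58.9, below MAX at 66.8 in BJ, while MXD1 was last in both, at 35.5 and 5.60. By RNA per kb, NPM1 was again first (6529 and 3188), but NOP58 (290 and 183) and NOP56 (224 and 181) stood above FBL (176 and 107) in both models. On GRCh37 with GENCODE annotation, NPM1 spans chr5:170814120-170838814, NCL chr2:232318242-232348352, FBL chr19:40325098-40337019, NOP56 chr20:2633239-2639039, NOP58 chr2:203130459-203168384, DKC1 chrX:153991017-154005964, MAX chr14:65472892-65569413 and MXD1 chr2:70124820-70170077, and MYC is on chromosome 8. The coding lengths used were those of the MANE transcripts, from 480 bases for MAX to 2130 for NCL.

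The other genes of the pathway were taken from lists that hold none of the 9 genes. In ELR against EH, footprints rose on 40 of 47 genes of small subunit assembly and 41 of 47 of large subunit assembly, and fell on none, with medians of 0.72 and 0.90 against −0.01 over all genes. NOL11 (1.21), UTP18 (1.47) and RRP12 (1.66) led the first list by p, and EBNA1BP2 (1.68), DDX21 (1.08) and PES1 (1.24) the second. Of 16 further genes of box C/D and H/ACA particles 13 rose, led by NOLC1 (1.30), RUVBL1 (1.03) and TCOF1 (0.92), and none fell. Of 19 genes of RNA polymerase I, 11 rose, among them POLR1B (1.21), POLR2E (0.52) and TWISTNB (1.10), and POLR2L fell by 0.16. Both POLR2E and POLR2L are subunits shared with other polymerases. In the joint fit of both models the counts of higher genes were 35, 38, 10 and 9, against 16.1% of all genes. At the first step, from EH to EL, 28 of 47, 32 of 47, 10 of 16 and 6 of 19 rose, against 19.1% of all genes, and at the second 28, 27, 5 and 8, against 17.4%. In that joint fit the counts were 17, 24, 5 and 1 at the first step, against 9.65% of all genes, and 19, 17, 0 and 2 at the second, against 6.42%.

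Genes that MYC is known to induce in metabolism and the cell cycle went both ways, 23 of 35 higher and 8 lower in ELR than in EH (median 0.49), where 25.5% of all genes were higher and 27.8% lower. C1QBP (1.73), NME1 (1.22) and HSPD1 (1.04), of mitochondria and nucleotide metabolism, led the higher ones. The amino acid transporters SLC1A5 (−1.79) and SLC7A5 (−2.02) and the glycolytic enzyme PKM (−0.47) led the lower ones. Among 6 other members of the MYC network tested, MLX, a partner of the MXD proteins, was higher by 0.77 and MXD3, a relative of MXD1, was lower (−3.04). MXD3 footprints fell at both steps (−1.10 and −1.94), and were also lower in uninduced ER-Src cells than in EH (−3.07).

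**Figure D4:**
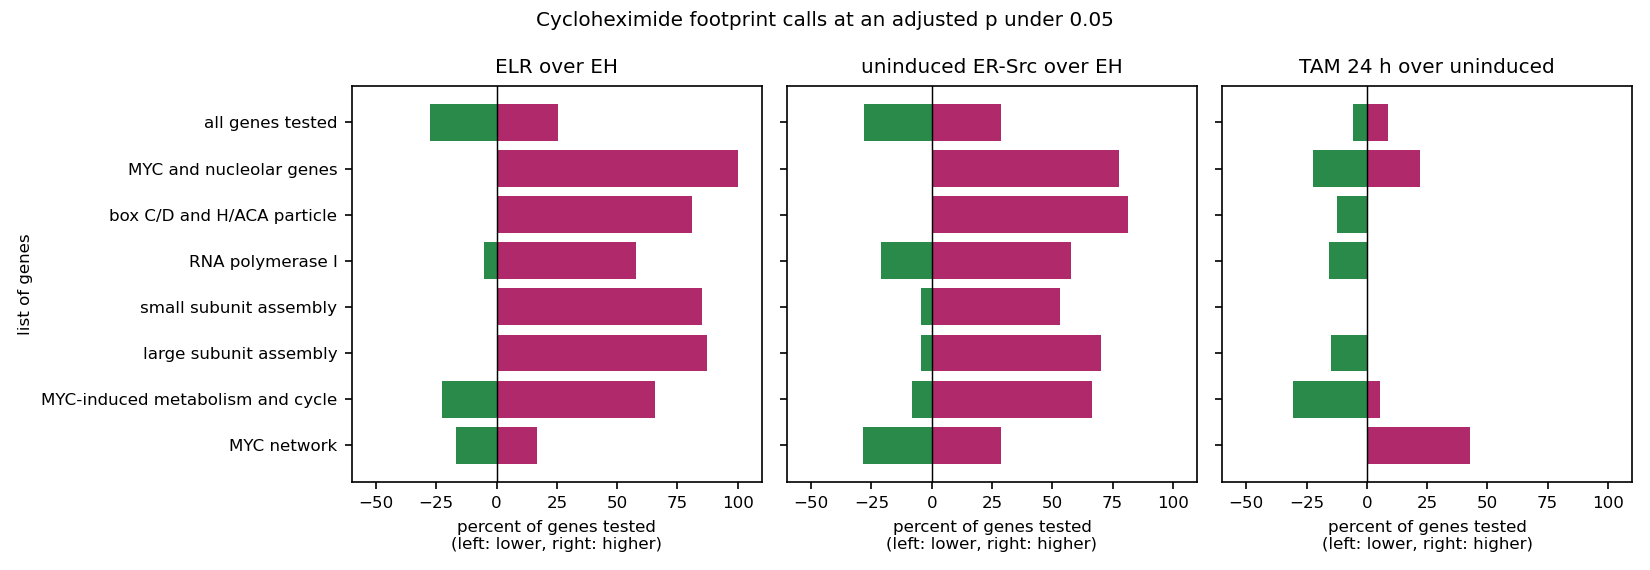
Percent of tested genes of each list (vertical axis) called higher (right) or lower (left) in cycloheximide footprints, in 3 comparisons. Assembly lists reach 40 of 47 and 41 of 47 genes higher in ELR over EH, against 25.5% of all genes, and have no gene called higher in tamoxifen at 24 h.

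After 24 h of tamoxifen the same lists gave few calls, to be read against 8.8% of all genes called higher and 5.84% lower. Of 47 genes of large subunit assembly 7 were lower, led by MRTO4 (−0.65), PA2G4 (−0.62) and RRS1 (−0.66), and none was higher, with a median of −0.17. Of 47 genes of small subunit assembly none was called in either direction (median −0.19), and of the box C/D and H/ACA list RRP9 (−0.57) and GAR1 (−0.48) were lower. Of the polymerase I genes 3 of 19 were lower, POLR2H (−0.55), POLR1E (−0.65) and POLR2K (−0.42), with POLR2H and POLR2K also shared with other polymerases. The MYC-induced list had 11 of 36 lower, led by SLC7A5 (−0.86), SRM (−0.86) and IMPDH2 (−0.55), and 2 higher, NAMPT (2.59) and LDHA (0.60). In the MYC network, MLXIP (0.98), MXD4 (1.19) and MXI1 (1.00), the latter 2 being relatives of MXD1, were higher among 7 tested. Against ethanol at 24 h alone, where 5.64% of all genes were higher and 1.99% lower, both subunit assembly lists together had 1 lower call, the MYC-induced list 1 higher and 2 lower, and the MYC network none. In tamoxifen at 24 h the summed leukocyte markers were 285 and 299.5 CPM of footprints, against 157.5 to 196.5 in the 4 uninduced libraries. The fibroblast markers were 151.4 and 152.1 against 64.5 to 97.4, and in RNA 358.6 against 136.6 to 168.7. Of these, FAP alone ranged from 35.5 to 123.5 CPM over the ER-Src footprint libraries and from 94.8 to 301.7 in RNA. COL1A2, COL3A1, COL5A1 and THY1 had no footprints in any ER-Src library under cycloheximide. The epithelial markers were 17580 and 20370 against 10230 to 14390. The 24 h ethanol library had the lowest of the 4 uninduced footprint sums for all 3 lists. The part of these shifts in the calls was not tested.

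Over the 16 cycloheximide libraries, with each gene centred within its model, the genes most like MYC among 3089 at 50 CPM or more in both models were RBM26 (Pearson r = 0.88), SART3 (0.84), CPNE1 (0.83), TOP1 (0.83) and SRSF11 (0.82). Those most like NOP56 were RBM12 (0.84), RRP1 (0.83), DKC1 (0.79), TMEM14C (0.78) and MCMBP (0.77). RBM12 went with NOP56 in ER-Src (r = 0.90) and not in BJ (r = 0.05), while the other 4 had r from 0.77 to 0.84 in ER-Src and from 0.75 to 0.99 in BJ. MYC and NOP56 went together in the 6 BJ libraries (r = 0.93) and apart in the 10 ER-Src libraries (r = −0.87). These values describe libraries that share lines, treatments, times and depth.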

How the data were processed

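RNA sequencing and ribosome profiling gave 36 libraries. The deposited files hold counts per RefSeq transcript, 36499 rows for each library, made by the authors from reads aligned with TopHat to hg19, per the submitters' processing notes. The counting program, the region counted and the handling of shared reads are not given in the sources used here. The 9 genes, the lists of related genes and the tests were chosen with earlier results of these data known. For each of 19137 symbols the transcript with the highest mean count was kept. Counts were fitted with edgeR 4.0.16 (R 4.3.3; TMM scaling, quasi-likelihood test, genes with at least 10 counts in enough libraries and 15 in total) and adjusted by Benjamini-Hochberg over all genes of a comparison, with calls at 0.05. The groups came from the labels. The 0 h and ethanol libraries formed 1 uninduced group. Loading was the interaction of library kind and group. BJ lines were fitted together, ER-Src arms together, and both models together for the comparison between them. The scripts were tested on simulated data. Of genes changed by 1 on the log2 scale, 100% were recovered in ELR against EH footprints (9996 genes) and 73% in tamoxifen 24 h against 1 h (10193 genes). The share was 65% in RNA at 24 h (10612 genes) and 41% in loading at 24 h (11133 genes). False calls made up 1.96%, 4.95%, 4.62% and 8.5% of calls in the same order, and 6.73% for footprints between models. For the same size of change, recovery was 85% in ELR against EH loading and 76% in ELR against EH under harringtonine. It was lowest, at 36%, in loading between models (11687 genes), so changes of that size were mostly missed there. Changes were set only in genes above the median level, with 1 spread for all genes of a fit. Recovery of scarcer genes, or with a spread that differs by gene, was not simulated.

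Alternatives were RLE size factors, DESeq2 1.42.0, no filter, the transcript chosen within the libraries compared, the replicate number as a block, each library left out in turn and, for tamoxifen, replicate 2 only. The joint fit of both models and the fit with 1 term per treatment and time were added after seeing the data. Named are all 9 genes, up to 3 called genes per direction with the smallest p from each of 6 lists (MYC network, box C/D and H/ACA particle, RNA polymerase I, small subunit assembly, large subunit assembly, MYC-induced metabolism and cycle), and the 5 genes most like MYC and NOP56. Epithelial, fibroblast, leukocyte and endothelial marker lists served as checks. The 9 leukocyte markers summed to 112.8 to 153.2 CPM in BJ footprints and the 8 endothelial ones to at most 3.72 CPM in ER-Src footprints. Same-numbered replicates were not shown to be paired: correlations of their deviations ran from −0.02 to 0.04 in BJ and from −0.02 to 0.24 in ER-Src. Depth was lowest under harringtonine, where 3553 genes could be tested between BJ lines.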

Additional observations from a re-analysis of the deposited data

Results flagged for a closer look

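MAX footprints in the 24 h ethanol library, at 44.15 CPM, stood apart from the other 3 uninduced libraries, at 31.2 to 32.4 CPM. The gap passed Dixon's 95% critical value, which by its definition about 1 in 20 groups pass by chance. Among tamoxifen libraries, footprints were higher at 24 h than at 1 h by 1.17 for MYC and 1.18 for MXD1 on the log2 scale (edgeR adjusted p = 0.00869 and 0.00341). These times were compared directly with each other, not through the uninduced libraries. The same change between the single ethanol libraries was 1.05 for MYC and −0.15 for MXD1. The change in tamoxifen beyond that in ethanol was 0.13 for MYC and 1.33 for MXD1 (edgeR adjusted p = 0.861 and 0.105), so neither was called on that comparison.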

How the results depend on the processing

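Among 1824 values of single genes under other settings, 1743 stayed on their side of the threshold, 61 lost a call and 20 gained one. The direction of differences that were not called could change with the setting. In tamoxifen at 24 h, MYC footprints had a mean of 353.7 CPM against 281.1 in uninduced cells, but were −0.20 against ethanol at 24 h alone. With DESeq2, called genes fell to 2461 for EL against EH footprints (3 of the 9 genes) and 1822 for ELR against EL. Under harringtonine DESeq2 called 255 genes for EL against EH (0 of the 9), 187 for ELR against EL (1 of the 9) and 491 for ELR against EH. For loading it called 233 (1 of the 9), 105 and 288 genes in the same order. In ER-Src it called 12 genes in footprints at 1 h, 4 in RNA at 1 h (1 of the 9), 447 in RNA at 24 h, 93 in loading at 24 h (1 of the 9) and 109 in loading between models. RLE size factors left 0 of the 9 in EL against EH under harringtonine. Without the filter, 2 of the 9 were called there, and 22 genes (1 of the 9) in footprints at 1 h, 175 at 4 h, 6 in RNA at 1 h, 35 in RNA at 4 h and 100 in loading between models. In the joint fit of both models, added after seeing the data, 2608 genes (3 of the 9) were called for EL against EH and 1781 (0 of the 9) for ELR against EL. With replicate 2 only, 0, 3 and 510 genes were called at 1, 4 and 24 h (0 of the 9 at 24 h). Against ethanol of the same time, also added after seeing the data, 1, 20 and 798 were (1 of the 9 at 24 h).

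With the replicate number as a block, 2 of the 9 genes were called in EL against EH under harringtonine, 1 in ELR against EL loading, and 4 genes in footprints at 1 h. The samples share only a number, and the block moved no other count of calls by over 1.5 times.

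Leaving out 1 library at a time gave, under harringtonine, 414 to 456 genes (0 to 1 of the 9) for EL against EH, 347 to 396 (1 to 2 of the 9) for ELR against EL and 716 to 869 for ELR against EH. Loading gave 191 to 305 genes for ELR against EL and 549 to 682 for ELR against EH. Tamoxifen footprints gave 0 to 6 genes at 1 h, 9 to 82 at 4 h, 703 to 1960 (1 to 6 of the 9) at 24 h, and 488 to 948 (0 to 2 of the 9) for 24 h against 1 h. RNA gave 0 to 14 (0 to 1 of the 9) at 1 h, 4 to 99 at 4 h and 364 to 1595 (0 to 3 of the 9) at 24 h. Loading gave 11 to 63 genes at 24 h and 23 to 53 between models. The cause of these shifts was not tested. Single RNA libraries limit every loading value, and low harringtonine depth limits MAX and MXD1 most. It also limits other genes: over both EH harringtonine libraries, MYC had 27 reads, NOP58 22, and FBL and DKC1 15 each, against 10 for MAX.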
